A study of Mus musculus with 32 samples.

Results

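The effect of a high-fat diet on the liver of adult male mouse offspring was examined with all detected genes on 16 arrays, 8 from males on the high-fat diet and 8 from males on the control diet, out of 32 arrays in the study. All 16 males were of the strain C57bl/6J OlaHsd and were 20 weeks old. Their mothers had received either an 18% control diet or a 9% low-protein diet with 90 g casein per kg while pregnant. At 6 weeks of age the offspring went onto the high-fat diet, which the submitters describe as 36% SF, or onto a control diet, and stayed on it for 14 weeks. There were 4 males for every combination of maternal and offspring diet (4 groups), called biological replicates in the labels, and the effect reported here is the average of the high-fat minus control difference over both maternal diets. The labels do not give the litters, so brothers in 1 group cannot be told from unrelated males. The other 16 arrays hold females of the same 4 diet groups on a later version of the bead array, so that sex and array version cannot be told apart.

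Hepatocytes take up fatty acids from the diet and either oxidise them in mitochondria, peroxisomes and microsomes or store them as triglyceride in lipid droplets. Droplets are coated by proteins of the perilipin and CIDE families, and the nuclear receptors PPAR-alpha and PPAR-gamma switch on genes of oxidation and of storage, respectively. The liver also secretes lipoproteins, complement and coagulation factors, and in the mouse many of its genes differ in level between the sexes under the control of growth hormone.

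Total liver RNA was measured by hybridisation, and levels are given as log2 normalised intensity after background correction with 16 added to every value, which understates the change of dim genes. Mean raw intensity lay between 247 and 309 on the control arrays and between 170 and 306 on the high-fat arrays, with means of 273 ± 17.8 and 249 ± 41.1 (SD, n = 8 each, two-sided exact permutation p = 0.152). The dimmest array was replicate 3 of the high-fat group after the 18% maternal diet. Between 43.7% and 47.2% of the probes were detected on each array. The number of arrays limits the precision. The summed level of the hepatocyte markers lay between 16.83 and 16.92 on control arrays and between 16.85 and 16.92 on high-fat arrays. All 14 of these markers on the array were detected. The brightest markers carry such a sum, and normalisation gave every array the same highest value, 14.68. The sum therefore cannot show whether hepatocyte content differed, and how far normalisation fixed it was not tested. Taken singly, 10 of the 14 high-fat minus control differences were negative and 4 positive. They ran from -0.66 to 0.13, with a median of -0.06.

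The largest rises of named genes were those of the lipid droplet proteins Cidec and Cidea, followed by the steroid hydroxylase Cyp17a1, the lipoprotein Apoa4 and the microsomal fatty acid hydroxylase Cyp4a14. The falls were smaller and were led by Serpina1e, an alpha-1-antitrypsin, Susd4, a complement regulator, the receptor Adgrf1, the drug-metabolising enzyme Cyp3a11 and the complement subunit C8b. Of the 10297 features tested with limma, 212 (2.06%) changed at an adjusted p under 0.05, of which 126 (1.22%) rose and 86 (0.835%) fell. A feature is a named gene, represented by its brightest probe, or a probe with no gene symbol. Named genes made up 189 of the 212, with 116 rises and 73 falls among 8840 named genes. The median change was 0.69 among the rises and -0.54 among the falls on the log2 scale, and 32 rises and 10 falls exceeded 2-fold. The ranges of the 8 high-fat and the 8 control arrays did not overlap for 52 features (0.505%), 45 of which were among the 212. The median change over all features was -0.0028. The largest change of any feature, 4.16 ± 0.27 without overlap of the diets (adjusted p = 2.9e-07), belonged to a probe that carries no gene symbol, ILMN_1230957.

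**Figure D1:**
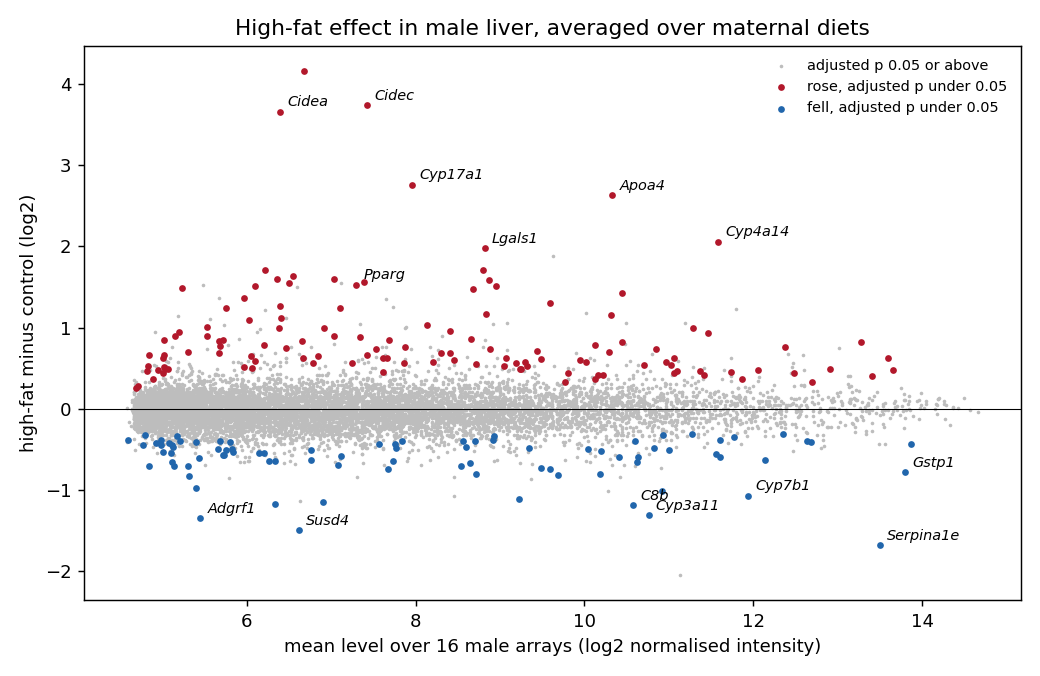
High-fat minus control difference (log2) of every feature against its mean level over the 16 male arrays (log2 normalised intensity), with the 126 rises in red, the 86 falls in blue and the other features in grey. Cidec and Cidea stand above 3.6 log2 units, and the highest point, at 4.16, is a probe without a gene symbol.

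The count depended on single arrays. It fell to 97 without control 18% replicate 3, to 109 without high-fat 9% replicate 2, to 113 without high-fat 18% replicate 4 and to 115 without control 9% replicate 4, while all 212 features kept their direction each time. With the raw intensity of the arrays as a covariate 89 features passed, 88 of them among the 212, and all 212 kept their direction.

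Among genes of lipid droplets and triglyceride storage, of the 26 listed genes that were tested 6 rose and 0 fell, and 22 of the 26 differences were positive. The median of the list was 0.34, against -0.0029 over all named genes tested. Of the list 23.1% passed, against 2.14% of the 8840 named genes tested, of which 116 rose and 73 fell. Over all named genes 4379 of the 8840 differences were positive. The counts of the lists below are to be read against these shares. Cidea and Mogat1, among the 6 that rose, passed the detection filter only through the high-fat arrays. With probes detected on all 16 arrays, 3 of 20 lipid droplet genes rose and the median was 0.25. With single arrays left out 5 to 9 rose, and 6 rose with raw intensity as a covariate. Cidec, which fuses lipid droplets into larger ones, lay between 4.53 and 6.5 on control arrays (median 5.59) and between 8.16 and 10.78 on high-fat arrays (median 9.14). The diets did not overlap, and Cidec rose by 3.74 ± 0.36 (SE) log2 units, or 13.4-fold (adjusted p = 3.63e-05). Cidea, a related droplet protein best known from brown fat, lay between 4.3 and 4.97 on control arrays, where only 1 of 8 arrays detected it, and between 6.81 and 10.54 on high-fat arrays (median 7.92), all 8 of which detected it. No high-fat array came near the control range, and Cidea rose by 3.66 ± 0.43 (adjusted p = 0.000247).

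Fitm1, which takes part in packing triglyceride into droplets, lay between 4.99 and 6.29 on control arrays (median 5.31) and between 6.45 and 7.49 on high-fat arrays (median 6.77), again without overlap, and rose by 1.51 ± 0.17 (adjusted p = 0.000146). Plin4, a droplet coat protein, lay between 4.79 and 7.25 on control arrays (median 5.65) and between 5.79 and 8.18 on high-fat arrays (median 7.36). Its diets overlapped and it rose by 1.55 ± 0.34 (adjusted p = 0.0239), which passed 0.05 in 10 of the 16 repeats that each left out 1 array. Mogat1, which makes diglyceride from monoglyceride, was detected on 0 control arrays (mean 4.49) and on all 8 high-fat arrays (mean 5.98), and was at least 2.22-fold higher on the high-fat diet (adjusted p = 0.0123). This bound takes, for each control array, the higher of the lowest signal among detected probes and the probe's own signal. Plin2, the common droplet coat protein of hepatocytes, rose by 0.76 ± 0.14 (adjusted p = 0.00966). G0s2, an inhibitor of the lipase ATGL, differed by 1.88 ± 0.58 without passing (adjusted p = 0.113). Dgat2, which makes the last step to triglyceride, differed by -0.48 ± 0.18 (adjusted p = 0.207).

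Pparg, the receptor PPAR-gamma, lay between 5.93 and 7.41 on control arrays (median 6.6) and between 7.59 and 8.72 on high-fat arrays (median 8). The diets did not overlap, and Pparg rose by 1.53 ± 0.21 (adjusted p = 0.00108). Both of its other detected probes rose as well, by 1.42 ± 0.14 and 1.2 ± 0.15 in the fit over every probe (adjusted p = 4.98e-05 and 0.000383). The 3 genes Cidec, Cidea and Pparg are also adipocyte markers. Other adipocyte markers on the array, namely Aqp7, Fabp4, Lep and Plin1, were detected on none of the 16 arrays and were not tested. Of the 5 adipocyte markers tested these 3 passed (60%), all 5 differences were positive and the median was 1.53. Cidea passed the detection filter only through the high-fat arrays. The summed level of the 5 markers lay between 13.46 and 13.89 on control arrays and between 13.61 and 14.14 on high-fat arrays. Cidec, Cidea and Pparg reached at most 10.78, 10.54 and 8.72, so brighter members carry this sum.

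**Figure D2:**
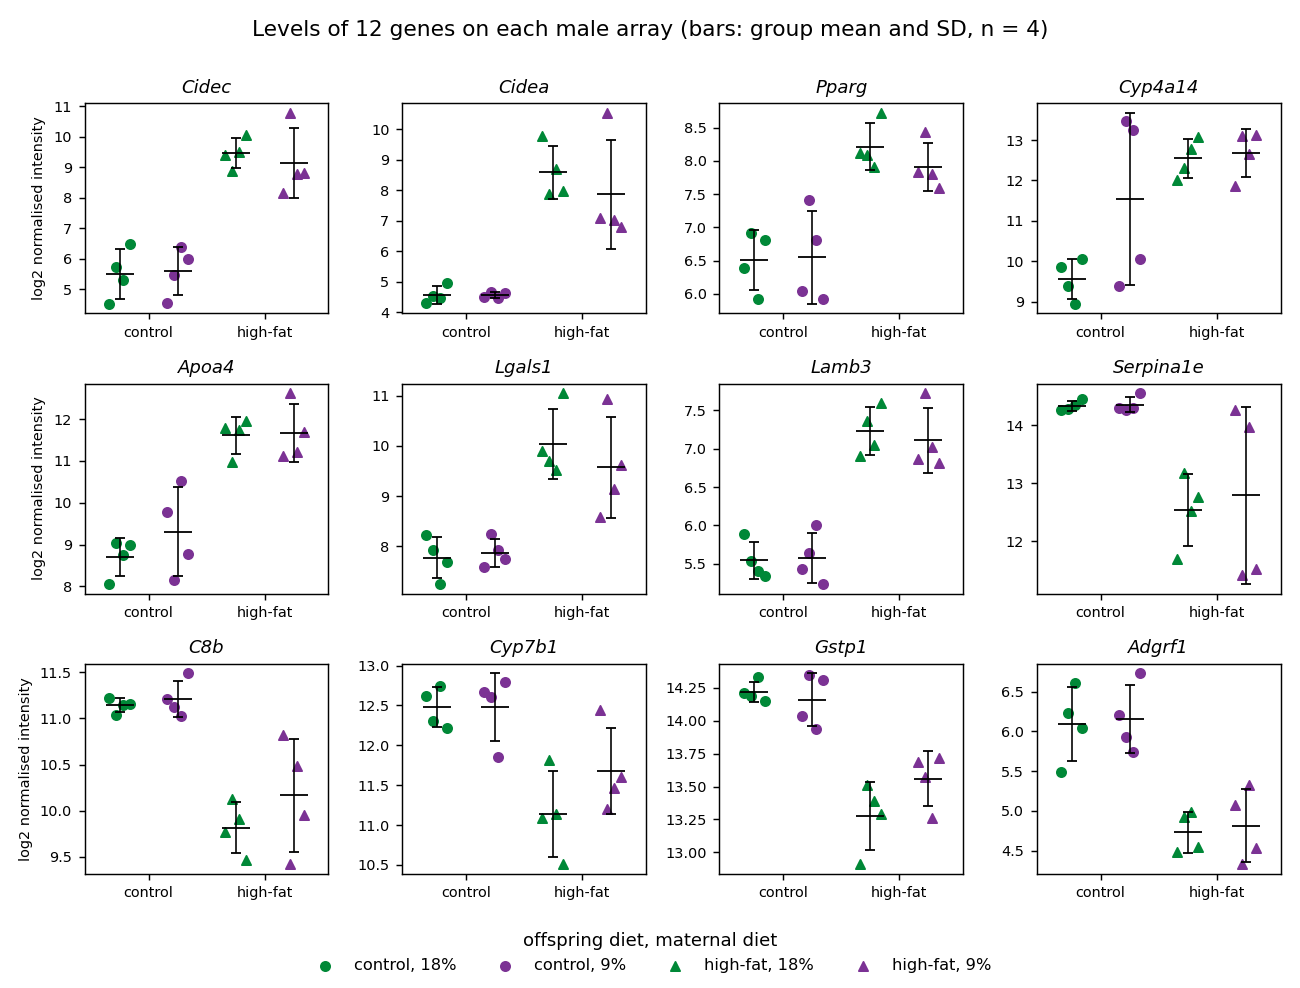
Levels of 12 genes on each of the 16 male arrays (log2 normalised intensity), by offspring diet and by maternal diet, with the mean and SD of each group of 4. High-fat arrays stand apart from control arrays for Cidec, Cidea, Pparg, Apoa4, Lgals1, Lamb3, C8b, Gstp1 and Adgrf1, while 2 control arrays after the 9% maternal diet reach 13.26 and 13.48 for Cyp4a14.

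The promoters of the lipid droplet genes that rose are shown because these genes moved together. The sequences are those of RefSeq on GRCm38.p6 and run from 250 bases before to 50 bases after each annotated start. Of the 6 genes that rose, 5 are printed. Capitals mark the CCAAT box (CCAAT, on either strand) and the E-box (CACGTG), which do not overlap.
Cidec upstream promoter, chr6:113435711-113436010, minus strand: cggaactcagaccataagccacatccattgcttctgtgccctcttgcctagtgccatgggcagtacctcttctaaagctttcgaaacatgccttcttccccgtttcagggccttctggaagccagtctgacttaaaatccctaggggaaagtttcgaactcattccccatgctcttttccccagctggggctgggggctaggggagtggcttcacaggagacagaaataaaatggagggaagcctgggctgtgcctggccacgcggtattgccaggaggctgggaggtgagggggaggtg
Cidec downstream promoter, chr6:113434715-113435014, minus strand: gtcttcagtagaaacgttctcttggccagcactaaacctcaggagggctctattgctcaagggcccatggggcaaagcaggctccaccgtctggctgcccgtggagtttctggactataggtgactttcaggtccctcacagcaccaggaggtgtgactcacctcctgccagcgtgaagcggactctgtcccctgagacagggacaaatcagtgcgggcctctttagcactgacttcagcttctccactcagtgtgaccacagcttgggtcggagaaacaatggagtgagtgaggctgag
Plin4 promoter, chr17:56109733-56110032, minus strand: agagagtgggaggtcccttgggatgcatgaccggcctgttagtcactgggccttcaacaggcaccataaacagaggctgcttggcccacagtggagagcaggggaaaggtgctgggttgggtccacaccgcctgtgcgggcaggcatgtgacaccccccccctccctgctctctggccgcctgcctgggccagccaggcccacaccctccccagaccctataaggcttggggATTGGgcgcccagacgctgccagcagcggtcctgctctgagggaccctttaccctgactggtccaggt
Fitm1 promoter, chr14:55575424-55575723, plus strand: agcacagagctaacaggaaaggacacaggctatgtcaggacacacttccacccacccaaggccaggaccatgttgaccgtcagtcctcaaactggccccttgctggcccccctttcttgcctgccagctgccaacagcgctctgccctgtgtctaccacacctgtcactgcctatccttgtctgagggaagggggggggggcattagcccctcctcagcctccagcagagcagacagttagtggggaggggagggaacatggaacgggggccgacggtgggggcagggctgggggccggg
Mogat1 promoter, chr1:78510810-78511109, plus strand: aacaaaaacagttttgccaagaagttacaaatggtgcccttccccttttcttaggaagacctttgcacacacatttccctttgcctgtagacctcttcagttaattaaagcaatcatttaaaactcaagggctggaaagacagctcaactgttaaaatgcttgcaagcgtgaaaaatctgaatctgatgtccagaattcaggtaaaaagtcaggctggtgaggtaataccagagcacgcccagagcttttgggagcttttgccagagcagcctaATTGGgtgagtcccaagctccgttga
Plin2 promoter, chr4:86670010-86670309, minus strand: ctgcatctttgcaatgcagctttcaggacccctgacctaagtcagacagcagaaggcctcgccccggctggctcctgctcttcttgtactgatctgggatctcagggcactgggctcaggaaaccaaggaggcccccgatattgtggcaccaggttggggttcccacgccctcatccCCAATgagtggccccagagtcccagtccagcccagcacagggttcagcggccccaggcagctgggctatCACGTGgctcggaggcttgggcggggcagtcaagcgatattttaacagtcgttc

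The printed windows of Plin4, Mogat1 and Plin2 held a CCAAT box and that of Plin2 also an E-box. Of 32851 promoters of this length in the table, 37.4% held CCAAT and 7.15% held CACGTG, and of the 9207 promoters of the genes tested 37.4% and 9.59% did. Among the 134 promoters of 95 named genes that rose, the shares were 34.3% and 14.2%, and among the 71 promoters of 60 named genes that fell they were 29.6% and 9.86%. Both strands were also searched for the PPAR response element AGGTCANAGGTCA, its looser form AGGNCANAGGNCA, the STAT5 site TTCNNNGAA and the sterol response element TCACCCCAC, where N is any base. These were in 0.0396%, 0.381%, 8.3% and 0.551% of all promoters and in 0, 1, 6 and 1 of the 134 promoters of the rises. None was in the 6 windows printed, which says only that these letters are not there.

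Genes of fatty acid oxidation and known targets of PPAR-alpha were examined next. Of 36 tested, 8 rose, 0 fell and 35 differences were positive, with a median of 0.33. The 8 were Cyp4a14, Crat, Pex11a, Cyp4a10, Bdh1, Acaa1b, Acadm and Eci1. The number that rose lay between 4 (without high-fat 9% replicate 2 or without high-fat 18% replicate 4) and 12 (without control 9% replicate 3) when single arrays were left out, and also fell to 5 without control 9% replicate 4, high-fat 9% replicate 4, control 18% replicate 2 or control 18% replicate 3. It was 3 with raw intensity as a covariate, and the median was then 0.33.

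Cyp4a14, which starts the omega-oxidation of fatty acids, was the most variable of them. It lay between 8.95 and 10.06 on 6 control arrays and at 13.48 and 13.26 on control 9% replicates 2 and 3, against 11.86 to 13.13 on high-fat arrays (median 12.72). These 2 control arrays therefore exceeded every high-fat array, and Cyp4a14 rose by 2.06 ± 0.49 (adjusted p = 0.0362), a call lost in 10 of the 16 repeats without 1 array (adjusted p 0.0115 to 0.0872). The same 2 arrays were the highest controls for Cyp4a10, a close paralogue whose signal may not be fully separate, and for Crat, carnitine acetyltransferase. Cyp4a10 lay between 11.53 and 13.91 on control arrays and between 13.61 and 13.82 on high-fat arrays, and rose by 0.82 ± 0.19 (adjusted p = 0.0353). Its call was lost in 12 of the 16 repeats, and its second detected probe differed by 1.03 ± 0.3 without passing (adjusted p = 0.0919). That probe was dimmer, with a mean of 10.83 against 13.28. The brighter probe lay towards 14.68, the highest value on every array, and whether it was saturated was not tested. Crat lay between 5.5 and 7.23 on control arrays and between 6.7 and 7.88 on high-fat arrays, and rose by 0.99 ± 0.21 (adjusted p = 0.0208). This call was lost without high-fat 9% replicate 2 or high-fat 18% replicate 4 (adjusted p up to 0.0515) and with raw intensity as a covariate (adjusted p = 0.0608).

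Pex11a, which drives the division of peroxisomes, separated the diets. It lay between 9.67 and 10.49 on control arrays and between 10.55 and 11.33 on high-fat arrays, and rose by 0.82 ± 0.13 (adjusted p = 0.00362). Smaller rises were found for the peroxisomal thiolase Acaa1b (0.63 ± 0.12, adjusted p = 0.0117), the medium-chain dehydrogenase Acadm (0.47 ± 0.09, adjusted p = 0.0123) and the enoyl isomerase Eci1 (0.45 ± 0.09, adjusted p = 0.0142). Bdh1, which makes the ketone body hydroxybutyrate, rose by 0.7 ± 0.17 (adjusted p = 0.037). Fgf21, a hormone that the liver secretes in fasting, lay between 5.48 and 9.08 on control arrays and between 7.15 and 9.8 on high-fat arrays, and its difference of 0.76 ± 0.43 did not pass (adjusted p = 0.39). The high-fat minus control difference of Fgf21 was 2.01 after the 18% and -0.48 after the 9% maternal diet.

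In fatty acid synthesis, the desaturases Fads2, Scd2 and Fads1 and the elongase Elovl5 rose, while Scd1 and the core synthase Fasn did not pass. Of 19 tested, 4 rose and 0 fell, with a median of 0.21. Fads2, the delta-6 desaturase, lay between 9.02 and 11.07 on control arrays and between 10.2 and 11.32 on high-fat arrays, and rose by 1.16 ± 0.24 (adjusted p = 0.0208). Scd2, a stearoyl-CoA desaturase, rose by 0.88 ± 0.21 (adjusted p = 0.0398), Elovl5, which elongates polyunsaturated fatty acids, by 0.48 ± 0.1 (adjusted p = 0.0229) and Fads1, the delta-5 desaturase, by 0.4 ± 0.1 (adjusted p = 0.0437). The calls of Fads2, Scd2, Elovl5 and Fads1 were lost in 1, 10, 4 and 13 of the 16 repeats without 1 array. Fasn, fatty acid synthase, lay between 10.96 and 12.69 on control arrays and between 11.73 and 12.73 on high-fat arrays, a difference of 0.15 ± 0.19 (adjusted p = 0.722). Scd1, the main hepatic stearoyl-CoA desaturase, differed by 0.25 ± 0.09 (adjusted p = 0.207). Its mean level, 13.75, also lay towards the top of the scale, where saturation was not tested. The count of 4 fell to 1 without control 9% replicate 4, high-fat 9% replicate 2, control 18% replicate 3 or high-fat 18% replicate 4, and to 2 without control 9% replicate 1, control 9% replicate 2, high-fat 9% replicate 3, high-fat 9% replicate 4 or control 18% replicate 2. It was 0 with raw intensity as a covariate, with a median of 0.17.

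Cholesterol synthesis genes were mostly positive but only 1 of 21 passed (4.76%, against 2.14% of all named genes). Ebp, a sterol isomerase, rose by 0.36 ± 0.08 (adjusted p = 0.0269), and 20 of the 21 differences were above 0, with a median of 0.29. The call of Ebp was lost in 5 of the 16 repeats without 1 array. In bile acid synthesis and sterol export, 1 of 25 fell (4%), 0 rose and the median was -0.17. The gene that fell was Cyp7b1, the oxysterol hydroxylase of the alternative pathway of bile acid synthesis. Cyp7b1 lay between 11.85 and 12.79 on control arrays (median 12.61) and between 10.51 and 12.44 on high-fat arrays (median 11.34), and fell by 1.07 ± 0.2 on the log2 scale (adjusted p = 0.00966). Only high-fat 9% replicate 1, at 12.44, lay within the control range. Cyp7a1, the rate-limiting enzyme of the classical pathway, differed by -0.55 ± 0.54 (adjusted p = 0.632).

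Among apolipoproteins and lipoprotein handling genes, 3 of 24 rose and 1 fell, with a median of 0.03. Apoa4, an apolipoprotein of triglyceride-rich particles, lay between 8.06 and 10.53 on control arrays (median 8.88) and between 10.97 and 12.62 on high-fat arrays (median 11.73). No control array reached the high-fat range, and Apoa4 rose by 2.63 ± 0.3, or 6.18-fold (adjusted p = 0.000216). Apoc2, the activator of lipoprotein lipase, rose by 0.71 ± 0.12 (adjusted p = 0.00513), and Apom, which carries sphingosine-1-phosphate on high-density lipoprotein, fell by 0.41 ± 0.09 on the log2 scale (adjusted p = 0.0321). The call of Apom was lost in 8 of the 16 repeats without 1 array (adjusted p up to 0.0824) and with raw intensity as a covariate (adjusted p = 0.118).

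Pltp, the phospholipid transfer protein of plasma, lay between 5.81 and 8.09 on control arrays (median 6.08) and between 6.8 and 9.54 on high-fat arrays (median 8.17). The diets overlapped, and the rise of 1.56 ± 0.39 (adjusted p = 0.0464) was lost in 12 of the 16 repeats without 1 array and with raw intensity as a covariate, where it was 1.26 (adjusted p = 0.166). The second detected probe of Pltp rose by 1.32 ± 0.3 (adjusted p = 0.03). Ctsa, the lysosomal protein cathepsin A, rose by 1.58 ± 0.32 (adjusted p = 0.0179) from 7.21 to 9.31 on control arrays to 8.82 to 10.75 on high-fat arrays. The call of Ctsa was lost with raw intensity as a covariate (adjusted p = 0.0749). The second detected probe of Ctsa differed by only 0.16 ± 0.14 (adjusted p = 0.571), so the probes of Ctsa disagreed. In RefSeq on GRCm38.p6 the annotated spans of Ctsa and Pltp overlap, and the part of either transcript that a probe matches is not used here.

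Several complement and coagulation factors fell. Of 59 genes of the acute phase, complement and coagulation list, 9 fell and 1 rose, and 44 of the 59 differences were negative, with a median of -0.19. The 9 were the protease inhibitor Serpina1e, the membrane attack components C8b, C6, C8a and Hc (complement C5), the early components C2 and Masp1, the inter-alpha-inhibitor chain Itih3 and coagulation factor F5. C8b lay between 11.03 and 11.49 on control arrays (median 11.15) and between 9.42 and 10.82 on high-fat arrays (median 9.93). The diets did not overlap, and C8b fell by 1.19 ± 0.16 on the log2 scale (adjusted p = 0.00096). C6 lay between 9.58 and 10.38 on control arrays (median 10.18) and between 8.93 and 9.92 on high-fat arrays (median 9.13), and fell by 0.82 ± 0.15 (adjusted p = 0.0088).

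Serpina1e was the named gene with the largest fall. Its control arrays lay between 14.26 and 14.55 (median 14.3) and the high-fat arrays between 11.42 and 14.26 (median 12.64). The control values are close to 14.68, the highest value on every array, and whether the probe was saturated there was not tested. Serpina1e fell by 1.68 ± 0.35 (adjusted p = 0.0208), with high-fat 9% replicate 1, at 14.26, level with the lowest control arrays. Serpina1e has near-identical paralogues in the mouse, and its probe may also report them. Smaller falls were those of C2 by 0.59 ± 0.12 (adjusted p = 0.0195), Masp1 by 0.52 ± 0.13 (adjusted p = 0.0495), C8a by 0.51 ± 0.1 (adjusted p = 0.0138) and Hc by 0.4 ± 0.08 (adjusted p = 0.0211). Saa1, a serum amyloid A of the acute phase, rose by 1.42 ± 0.35 (adjusted p = 0.042), but its diets overlapped and the call was lost in 11 of the 16 repeats without 1 array. Its near-identical neighbour Saa2 differed by 1.35 ± 0.36 (adjusted p = 0.0596), and Lcn2, which neutrophils also make, by 1.55 ± 0.44 (adjusted p = 0.078). None of the 6 neutrophil markers tested passed, and their differences ran from -0.29 to 1.55, the highest equal to that of Lcn2. The neutrophil markers Elane, Ltf, Mpo and Ngp were detected on no array. The summed level of the 6 lay between 8.11 and 9.82 on control arrays and between 8.51 and 10.44 on high-fat arrays. This sum may not be separate from Lcn2, and the part of neutrophils in these values was not tested. The count of 9 falls was 5 without high-fat 9% replicate 2, 4 without control 18% replicate 3 and 3 with raw intensity as a covariate, where the median of the list was -0.16.

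Several genes known to be higher in male than in female mouse liver fell, and some female-biased genes rose. Of 23 male-biased genes tested, 7 fell and 2 rose, and 18 differences were negative, with a median of -0.44. The 7 were Serpina1e, Susd4, C8b, Cyp7b1, C6, Gstp1 and Keg1, so 3 of them are also in the complement and coagulation list. The 2 that rose were the droplet gene Fitm1 and Omd, an extracellular matrix protein (0.78 ± 0.15, adjusted p = 0.0139). Gstp1, a glutathione transferase with a near-identical neighbour, lay between 13.94 and 14.35 on control arrays and between 12.91 and 13.72 on high-fat arrays. Its diets did not overlap and it fell by 0.78 ± 0.1 on the log2 scale (adjusted p = 0.000389). Its other detected probes fell by 1.44 ± 0.12 and 1.26 ± 0.13 (adjusted p = 6.62e-06 and 6.33e-05). They were dimmer, with means of 12.99 and 12.92 against 13.8. On control arrays the brightest probe of Gstp1 lay close to 14.68, the highest value on every array, and whether it was saturated there was not tested. Susd4 lay between 5.7 and 7.93 on control arrays (median 7.62) and between 4.9 and 7.37 on high-fat arrays (median 5.7), and fell by 1.5 ± 0.35 (adjusted p = 0.0309), a call lost in 11 of the 16 repeats without 1 array. Hsd3b5, a steroid dehydrogenase found in male liver, differed by -2.05 ± 0.69 without passing (adjusted p = 0.148).

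Of 18 female-biased genes tested, 4 rose and 0 fell, with a median of 0.27. They were Cyp17a1, Cyp4a14, Gstt3 and Cyp4a10, and the pair of Cyp4a genes is also in the oxidation list. Cyp17a1, best known for steroid synthesis in the gonads and present in female mouse liver, lay between 5.55 and 7.58 on control arrays (median 6.47) and between 8.14 and 10.86 on high-fat arrays (median 9.26). The diets did not overlap, and Cyp17a1 rose by 2.76 ± 0.38, or 6.78-fold (adjusted p = 0.00096). Gstt3, a theta-class glutathione transferase, rose by 0.99 ± 0.12 (adjusted p = 0.000497). None of the 16 genes tested of the growth hormone and IGF axis passed, although 14 of the 16 differences were negative, with a median of -0.19. The male-biased count of 7 falls became 4 with robust variance estimates or with raw intensity as a covariate, and the female-biased count of 4 rises became 2 in both. The latter was also 2 without control 9% replicate 1 or 4, high-fat 9% replicate 2, 3 or 4, control 18% replicate 2 or 3, or high-fat 18% replicate 3 or 4.

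Of 38 drug-metabolising genes tested, 3 fell, 1 rose and 31 differences were negative, with a median of -0.17. Cyp3a11, the main steroid- and drug-oxidising cytochrome of mouse liver, lay between 10.31 and 12.41 on control arrays and between 8.69 and 11.07 on high-fat arrays, and fell by 1.31 ± 0.33 on the log2 scale (adjusted p = 0.0464). That call was lost in 13 of the 16 repeats without 1 array. Cyp1a2, which metabolises caffeine, lay between 10.63 and 11.99 on control arrays and between 9.63 and 11.38 on high-fat arrays and fell by 1.01 ± 0.21 (adjusted p = 0.0208), a call lost without control 18% replicate 3 or high-fat 18% replicate 4 (adjusted p up to 0.0515). Nat8, an acetyltransferase, fell by 0.74 ± 0.15 (adjusted p = 0.0195), a call lost with raw intensity as a covariate (adjusted p = 0.0647). Cyp2c38 rose by 0.85 ± 0.21 (adjusted p = 0.0405), a call lost in 10 of the 16 repeats (adjusted p up to 0.0974). The count of 3 falls was 1 without control 18% replicate 3 and 1 with raw intensity as a covariate. In glutathione and antioxidant defence, Gstt3 and Gstm2 rose and Gstp1 fell among 34 tested, with a median of 0.11. Gstm2 rose by 0.93 ± 0.19 (adjusted p = 0.0195), a call lost without control 18% replicate 3 and with raw intensity as a covariate (adjusted p = 0.0809).

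Several rises were in genes of the cell surface, cytoskeleton and membranes. Of 28 genes of a list of cytoskeleton, galectin and annexin genes linked to steatosis, 5 rose and 0 fell, with a median of 0.2. Lgals1, galectin-1, lay between 7.25 and 8.24 on control arrays (median 7.84) and between 8.59 and 11.05 on high-fat arrays (median 9.66). The ranges were separate, and Lgals1 rose by 1.98 ± 0.28 (adjusted p = 0.00136). The heparan sulphate proteoglycan Gpc1 rose by 1.71 ± 0.32 (adjusted p = 0.00971), although control 9% replicate 3, at 9.92, lay within the high-fat range of 9.09 to 10.57. Osbpl3, an oxysterol-binding protein homologue, rose by 1.71 ± 0.29 (adjusted p = 0.00467), and control 9% replicate 3 was again the highest control, at 6.91. Its second detected probe, near the lower end of the scale at a mean of 4.99, differed by 0.14 ± 0.08 (adjusted p = 0.405). The membrane-binding annexins Anxa2 and Anxa5 rose by 1.3 ± 0.28 (adjusted p = 0.0212) and 0.73 ± 0.18 (adjusted p = 0.0396). The count of 5 fell to 3 without high-fat 18% replicate 4, when Anxa2 had an adjusted p of 0.0515.

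Outside these lists, Lamb3, a laminin chain of basement membranes, gave one of the smallest p-values. It lay between 5.24 and 6 on control arrays (median 5.48) and between 6.81 and 7.72 on high-fat arrays (median 7.03), without overlap, and rose by 1.6 ± 0.16 (adjusted p = 3.63e-05). Tpm2, a tropomyosin, lay between 5.51 and 7.1 on control arrays and between 7.23 and 8.5 on high-fat arrays and rose by 1.6 ± 0.22 (adjusted p = 0.00106). Treh, the enzyme that splits trehalose, rose by 1.63 ± 0.27 (adjusted p = 0.00373), with 1 high-fat array, at 6.48, below the highest control array, at 6.57. None of the 19 stellate cell and fibroblast markers tested passed, with a median of 0.06 and a summed level between 12.75 and 13.09 on control and between 12.75 and 13.1 on high-fat arrays. In whole liver, fewer cells of a type and less RNA per cell cannot be told apart.

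Among the largest falls, Adgrf1, an adhesion G-protein-coupled receptor, lay between 5.49 and 6.73 on control arrays (median 6.12) and between 4.33 and 5.32 on high-fat arrays (median 4.73), where 4 of 8 arrays detected it. The diets did not overlap, and Adgrf1 fell by 1.35 ± 0.18 on the log2 scale (adjusted p = 0.00096). Abca8a, a lipid transporter, lay between 9.28 and 10.19 on control arrays and between 8 and 9.2 on high-fat arrays, also without overlap, and fell by 1.11 ± 0.18 (adjusted p = 0.00301). Irf5, a transcription factor of the interferon response, fell by 1.15 ± 0.2 (adjusted p = 0.00537). It was the only 1 of 28 interferon genes tested to pass (3.57%, against 2.14% of all named genes). Col27a1, a fibrillar collagen, fell by 0.98 ± 0.2 (adjusted p = 0.0177), and high-fat arrays detected it in 4 of 8 cases. The call of Col27a1 was lost with raw intensity as a covariate (adjusted p = 0.0587). Gna14, a G-protein alpha subunit, fell by 1.18 ± 0.29 (adjusted p = 0.0425), a call lost in 11 of the 16 repeats without 1 array.

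**Figure D3:**
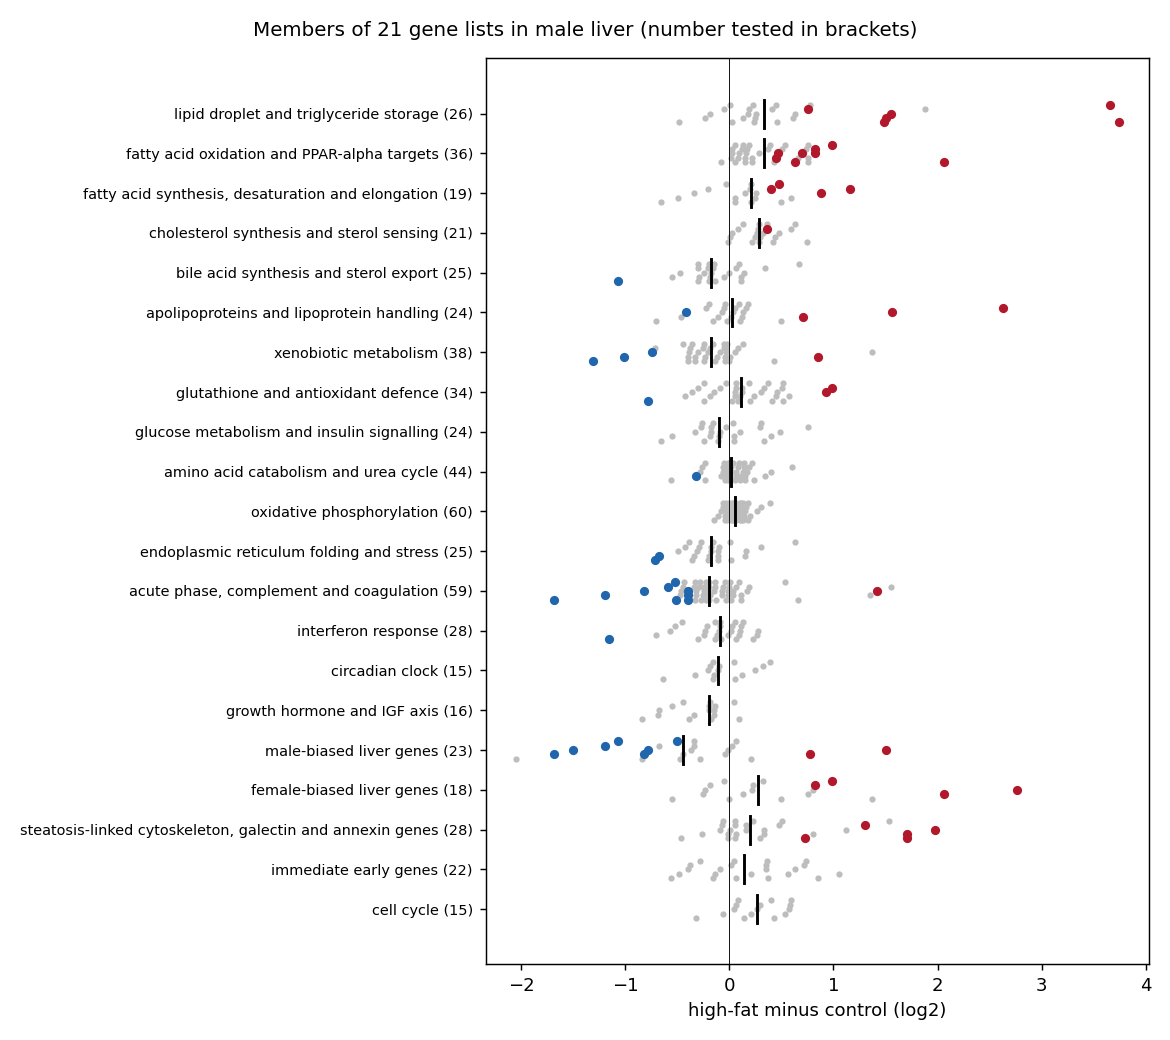
High-fat minus control difference (log2) of every tested member of 21 gene lists, with rises in red, falls in blue, other members in grey and the median of each list as a black line. Medians run from -0.44 for male-biased genes to 0.34 for lipid droplet genes.

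None of 60 oxidative phosphorylation genes, 24 genes of glucose metabolism and insulin signalling, 15 clock genes, 22 immediate early genes or 15 cell cycle genes passed, with medians of 0.06, -0.09, -0.11, 0.14 and 0.27. Over all named genes 2.14% passed, so 0 or 1 call in a list of this size does not set it apart. Of the 15 listed cell cycle genes, 13 differences were positive and 2 negative. Outside the cell cycle list, Cdk4, Spc24 and Cenpm rose by 0.48, 0.76 and 0.47 (adjusted p = 0.0396, 0.0359 and 0.0252). Of 44 urea cycle and amino acid breakdown genes, Tdo2, which starts tryptophan breakdown, was the only one to pass, falling by 0.32 ± 0.08 (adjusted p = 0.0393), a call lost in 13 of the 16 repeats without 1 array (adjusted p up to 0.0932). Of 25 genes of protein folding in the endoplasmic reticulum, 2 fell and 0 rose, with a median of -0.17. Pdia5, a disulphide isomerase, fell by 0.71 ± 0.12 (adjusted p = 0.00537) and Ero1b, an oxidase of the same compartment, by 0.67 ± 0.16 (adjusted p = 0.0382), the latter lost in 10 of the 16 repeats without 1 array. These were the repeats without control 9% replicate 1 or 4, high-fat 9% replicate 1, 2 or 3, control 18% replicate 3 or 4, or high-fat 18% replicate 1, 3 or 4, and 1 of 25 then fell in each. Cd36, a fatty acid transporter, was not among the features tested.

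Markers of other cell types were examined beside these changes. None of 15 macrophage and Kupffer cell, 9 lymphocyte, 18 endothelial or 7 bile duct markers passed, where 2.14% of all named genes did. The medians of these markers were 0, -0.11, -0.07 and 0.11. Their summed levels overlapped between the diets, at 11.73 to 12.9 against 11.9 to 12.5 for macrophages and 9.14 to 10.35 against 9.15 to 9.97 for bile duct cells. Of 5 red blood cell markers, the globin gene Hba-a1, which has a near-identical copy, rose by 0.49 ± 0.12 (adjusted p = 0.0455). The globin gene Hbb-bt, outside this list, rose by 0.6 ± 0.12 (adjusted p = 0.017). Of 5 pancreatic acinar markers, Cela2a, an elastase, fell by 0.45 ± 0.11 on the log2 scale (adjusted p = 0.0456). The calls of Hba-a1 and Cela2a were lost in 13 and 11 of the 16 repeats without 1 array, and both with raw intensity as a covariate. The acinar markers Prss1, Prss2, Clps and Cela3b were detected on no array. The part of any of these cells in the changes above was not tested.

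The size of the effect after each maternal diet was compared next. Of the 212 features, 211 differed in the same direction after both maternal diets, the exception being Stoml2, against 5990 of all 10297 features. The difference was larger after the 18% maternal diet for 134 of the 212 and for 5790 of all 10297. The 126 rises had a median of 0.76 after the 18% and 0.64 after the 9% maternal diet, and the 86 falls of -0.55 and -0.51. These values come from the contrast that chose the features. When each maternal diet was tested on its own, 50 features rose and 15 fell after the 18% maternal diet (0.631%), and 10 rose and 1 fell after the 9% maternal diet (0.107%).

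The difference between the maternal diets was tested itself, and 0 of 10297 features (0%) passed in limma, with 699 at an unadjusted p under 0.05. The count was 4 without high-fat 18% replicate 4, and 1 without replicate 1 or replicate 3 of that group. The smallest p belonged to Stoml2, a mitochondrial membrane protein, which was detected on 0 control and 4 high-fat arrays and differed by 0.64 ± 0.08 after the 18% and -0.08 ± 0.08 after the 9% maternal diet (adjusted p of the difference = 0.0544). Stoml2 passed the filter of 4 arrays only through high-fat arrays, so its rank here is not independent of the filter. Its high-fat values were 4.94 to 5.19 after the 18% and 4.58 to 4.68 after the 9% maternal diet. Dner, a Notch ligand, followed with 0.89 ± 0.17 and -0.55 ± 0.17 (adjusted p of the difference = 0.0927), and Myom2, a muscle protein, with 0.6 ± 0.16 and -0.61 ± 0.16 (adjusted p of the difference = 0.124). All 3 lie near the lower end of the scale, with means between 4.68 and 4.97. Among the leading genes, Cidec rose by 3.94 ± 0.51 and 3.54 ± 0.51, and Cyp4a14 differed by 2.99 ± 0.69 and 1.13 ± 0.69 (adjusted p of the difference = 0.903 and 0.69).

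**Figure D4:**
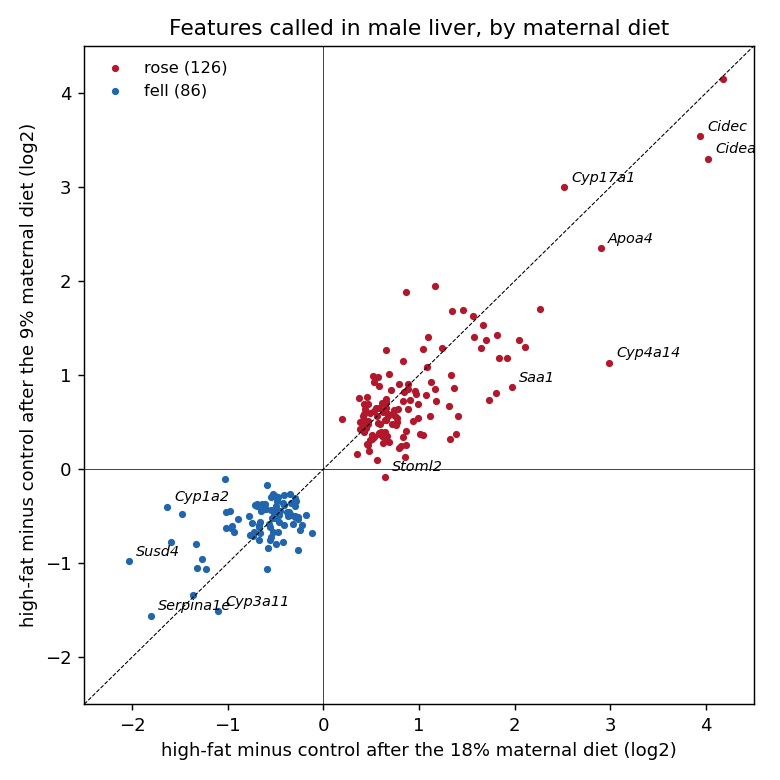
High-fat minus control difference (log2) after the 9% maternal diet against that after the 18% maternal diet for the 126 rises and 86 falls, with a dashed line where both are equal. All features but Stoml2 lie in the 2 quadrants of equal sign, and Cyp4a14 lies below the line at 2.99 and 1.13.

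The same comparison in females, 8 on the high-fat and 8 on the control diet after the same maternal diets, was used only to see where males differed. In females 829 of 9446 features (8.78%) passed, a count that fell to 11 with raw intensity as a covariate, where the median size of the 829 changes was 0.33 against 0.386 and their median SE 0.119 against 0.095. Of the 170 male genes that passed and were tested in both sexes, 71 passed in the same direction in females and 0 in the opposite direction. These were 55 of 104 rises and 16 of 66 falls. Cidec rose by 1.56 ± 0.41 in females (adjusted p = 0.0283), Apoa4 by 1.8 ± 0.2 (adjusted p = 0.000218) and Pltp by 1.89 ± 0.16 (adjusted p = 1.83e-05). Serpina1e fell by 1.89 ± 0.47 on the log2 scale in females (adjusted p = 0.0211). The sex difference of the effect was not called for any of these 4 genes. For Cidec and Serpina1e the same probe was used in both sexes, and for Apoa4 and Pltp different probes were used.

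The difference between the sexes passed for 10 of 6941 genes (0.144%), 5 of them with the higher value in males, and 769 had an unadjusted p under 0.05. The effect in males minus that in females was -1.15 ± 0.22 for Cyp7b1 (adjusted p = 0.0189), which the same probe measured in both sexes and which differed by 0.08 ± 0.1 in females. It was 1.04 ± 0.17 for the ribosomal protein gene Rps19 (adjusted p = 0.00511), which has near-identical pseudogenes, so that its value is uncertain, 1.71 ± 0.34 for Ctsa (adjusted p = 0.0222), 0.83 ± 0.15 for the ubiquitin ligase Ubr1 (adjusted p = 0.00787) and 0.93 ± 0.17 for the tetraspanin-like Tm4sf4 (adjusted p = 0.0128). For these 4 genes the arrays used different probes, and only 4 of the 10 differences rest on 1 shared probe. Ctsa differed by -0.13 ± 0.11 in females and by 0.16 ± 0.14 at its second detected probe in males. Its sex difference therefore rests on the brighter male probe. With every shared probe tested on its own, 8 of 6403 passed, 1 of them higher in males, and none passed with raw intensity as a covariate, when 618 had an unadjusted p under 0.05.

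**Figure D5:**
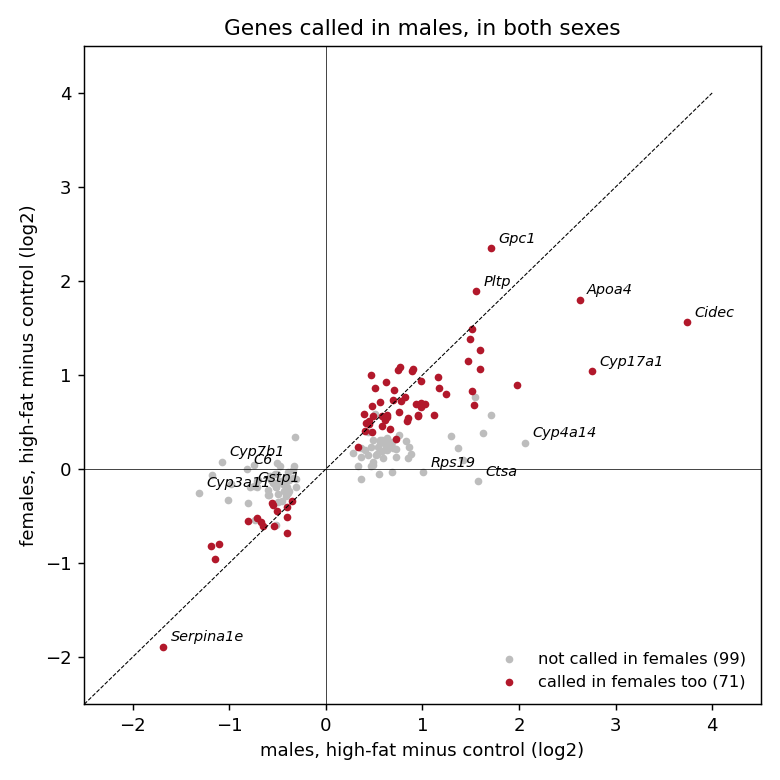
High-fat minus control difference (log2) in females against that in males for the 170 genes that passed in males and were tested in both sexes, with the 71 that passed in females too in red and the others in grey. Serpina1e lies near the dashed line of equal effects (-1.68 in males, -1.89 in females), Gpc1 lies above it (1.71 and 2.35), and Cyp7b1, Ctsa and Rps19 lie near 0 for females.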

How the data were processed

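Liver RNA of 32 offspring was measured on Illumina bead arrays, males and females on different array versions. The authors deposited background-subtracted probe intensities with a detection p-value per probe, and separately a table of quantile-normalised intensities, per the file headers and values. Per the submitters' processing notes the software was BeadStudio, with settings not given in the sources used. The 16 male arrays were analysed with limma 3.58.1 in R 4.3.3. Intensities were normalised with neqc, the negative controls being inferred from the detection p-values, and 16 was added before the log2 step. Of 24613 probes, those detected (p under 0.05) on 4 or more of the 16 arrays, 12173 in all, were kept, 20984 of all probes carrying 1 gene symbol, 1 several and 3628 none. The probe with the highest mean stood for its gene.

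Means for the 4 diet groups were fitted with an intensity trend, and p-values were two-sided and adjusted by Benjamini-Hochberg over all 10297 features, called at 0.05. Females were fitted alike on their own, and the sex difference was the difference of both effects over their combined SE. No litter is labelled, so p-values measure the spread between these males. The titles give no pairing of the arrays, so the replicate numbers were not taken to pair samples in the main fit. In the data, 10 of 24 pairs of same-numbered male arrays deviated together by a correlation over 0.1 (range -0.157 to 0.49). Among arrays of the other groups, 10 of the 16 male arrays lay closest to one of their own number, as did 7 of 16 female arrays. The number expected by chance was not computed. The count with a replicate block is given below. The computation was tested on simulated data.

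The genes named are the 15 largest rises and 12 largest falls, up to 4 called members of each list, 7 set genes, and the genes of smallest p for the interaction (3) and the sex difference (5). Other genes, inside and outside the lists, were named after their values were seen, as were the motifs searched. The members and lists were chosen with earlier results of these data known. Alternatives covered normalisation, detection filter, probe choice, variance model, array weights, replicate block, raw intensity, additive model and each array left out. Promoters are RefSeq's on GRCm38.p6, and the array files give no build.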

Additional observations from a re-analysis of the deposited data

Results flagged for a closer look

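Among 232 groups of 4 arrays examined, 1 array stood far from the other 3 in 15 (6.47%), where chance gives about 1 in 20. After the 9% maternal diet, high-fat replicate 2 was at 10.54 for Cidea (others 6.81 to 7.11), at 6.59 for Rps19 (others 5.55 to 5.71) and at 6.58 for Ubr1 (others 6.31 to 6.34). High-fat replicate 3 was at 7.23 for Tpm2 (others 8.02 to 8.1), and high-fat replicate 4 was at 9.8 for Fgf21 (others 7.15 to 7.57). In the control group after the 9% maternal diet, replicate 1 was at 7.36 for Pltp (others 5.81 to 5.93), 7.35 for Scd2 (others 7.03 to 7.07) and 5.51 for Rps19 (others 4.81 to 4.89). Replicate 3 of that group was at 6.91 for Osbpl3 (others 4.83 to 5.06) and 9.28 for Abca8a (others 9.81 to 9.91), and replicate 4 at 14.55 for Serpina1e (others 14.26 to 14.3). After the 18% maternal diet, control replicate 1 was at 6.29 for Fitm1 (others 5.29 to 5.35) and control replicate 2 at 7.12 for Col27a1 (others 6.04 to 6.19). High-fat replicate 4 was at 9.34 for Scd2 (others 7.55 to 7.69) and 10.13 for Apoc2 (others 9.49 to 9.59).

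The high-fat effect differed between the sexes, by the test of the difference, for 10 genes, and sex and array version cannot be told apart. Males minus females, it was 1.71 for Ctsa, 1.14 for Gpx6, 1.04 for Rps19, 0.93 for Tm4sf4 and 0.83 for Ubr1. It was -1.15 for Cyp7b1, -0.77 for Oscar, -0.66 for Haus7, -0.63 for Lmo4 and -0.59 for Gstp1. Only Cyp7b1, Haus7, Lmo4 and Oscar were measured by 1 probe shared between the array versions. The second detected male probe of Ctsa differed by only 0.16 ± 0.14 between the diets.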

How the results depend on the processing

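The 212 male features kept their direction with both other normalisations, array weights, raw intensity as a covariate and each array left out. The variance, filter and additive alternatives cannot turn it for a probe that stays in the fit. The count was 377 with array weights, 89 with raw intensity as a covariate, and 97 to 260 with single arrays left out. With the covariate the median size of the 212 changes was 0.606 against 0.622 and their median SE 0.136 against 0.125. It was 158 to 241 under the other alternatives. With the replicate number as a block it was 230. Among arrays of the other groups, 10 of 16 arrays lay closest to one of their own number, a hint from the data and not the design. The interaction count of 0 became 1 without a detection filter, 1 with array weights, 2 with the covariate and 0 to 4 with single arrays left out. The female count was 523 without a filter, 11 with the covariate and 469 to 959 with single arrays left out, and more than 1.5 times below the main count without high-fat 9% replicate 2 (519), high-fat 9% replicate 3 (498) or high-fat 18% replicate 1 (469). The count for the sex difference was 4 with probes detected on all 16 arrays, 26 without a filter, 25 with the replicate block, 0 with the covariate, 6 in the additive model and 3 to 25 with single arrays left out.

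Of the values of the 50 named genes that passed, 634 kept the call and 166 lost it with single arrays left out, and 488 kept and 54 lost it under the other alternatives, with no change of sign. Among the 7 named genes that did not pass, 5 values passed with single arrays left out and 5 under the other alternatives, and the sign changed only for Fasn and Myom2. Fasn ran from -0.0062 to 0.26 and Myom2 from -0.0673 to 0.0708 with single arrays left out, and Myom2 was 0.0273 with a floor and quantile normalisation, 0.0275 in the deposited table and 0.0739 with the covariate. The causes were not tested. A slide block was not run, since the headers name no slide. Dim probes near background limit small changes.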

Other observations

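Lists in which no gene or few genes passed had different medians after the maternal diets, and were picked out after their values were seen. The median of the 22 immediate early genes, which respond within minutes to stimuli, was 0.44 after the 18% and -0.19 after the 9% maternal diet. That of the 19 stellate cell and fibroblast markers was 0.29 and -0.19, and that of the 15 cell cycle genes 0.38 and 0.04. No test of these differences was run for the lists, and no single gene passed the test between the maternal diets.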
